A study of Mus musculus with 6 samples.

Results

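The genes described here are 10 that mark conventional dendritic cells, the antigen-presenting cells that prime T cells: Zbtb46, Flt3, Batf3, Id2, Sirpa, Cd209a, Xcr1, Clec9a, Fscn1 and Cd83. They were chosen by symbol, for what each gene is known to mark, but with earlier results of these data known. All 10 were found among the 30587 rows of the count table. RNA had been sequenced from dendritic cells grown from bone marrow of C57BL/6 mice. WT cells (3 libraries) carried the genotype Hif2afl/fl, in which the alleles of Hif2a, officially Epas1, are flanked by loxP sites. KO cells (3 libraries) carried CD11c-Cre;Hif2afl/fl, so that Cre recombinase was made under the promoter of CD11c, a surface integrin of dendritic cells that other myeloid cells can also carry. The Cre transgene itself was therefore present in KO alone. The cells of all 6 libraries had been kept for 24 h with dimethyloxalylglycine (DMOG), a hydroxylase inhibitor that keeps HIF α subunits from being degraded, and then for 4 h with the glycolipid α-galactosylceramide. No culture without either agent was analysed here. The labels used here give no age or sex of the mice and no growth factor for the cultures. They also leave unsaid whether each library had its own mouse or dish, so the p-values rest on a spread between libraries that may be technical.

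Conventional dendritic cells arise from bone marrow precursors that respond to FLT3 ligand, and split into type 1 cells (cDC1), which cross-present antigen to CD8 T cells, and type 2 cells (cDC2), which mainly prime CD4 T cells. ZBTB46 is a transcription factor of the whole lineage, BATF3 and ID2 serve the cDC1 branch, XCR1 and CLEC9A are cDC1 receptors, and SIRPα and CD209a are found on cDC2 and on related myeloid cells. FSCN1 and CD83 belong to dendritic cell maturation. Bone marrow cultures can hold macrophages and monocyte-derived cells besides dendritic cells. In bulk RNA, fewer cells of a type and less RNA per cell cannot be told apart.

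Total counts ran from 14668641 to 17884160 per library, and 13249 rows had enough reads for a test. The targeted gene Epas1 was covered by 339, 352 and 349 reads in WT 1 to 3 and by 175, 214 and 198 in KO 1 to 3, fewer in every KO library. WT 2 and KO 1 held the most rows with a single read (4825 and 3610, against 1961 to 2316 in the others). Results for identity genes that change without them are given with that value. Counts for the wider lists below can also change without them, and not all of those changes are given. Counts are expressed as CPM, the edgeR unit of counts relative to library size after TMM scaling, and every fold change is KO relative to WT with its SE. The quasi-likelihood test of edgeR was run across all tested genes, and those with an adjusted p under 0.05 count as called.

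Of the 10 identity genes, 5 rose in KO, none fell, 4 did not pass the test and 1, Cd209a, had too few reads to be tested. Zbtb46, Flt3, Xcr1, Fscn1 and Cd83 were the ones that rose. Leaving out Xcr1, which had enough reads for a test mainly in KO, 4 of 8 rose. Among all tested genes 25.8% were called, 13.8% higher and 12.0% lower. The median log2 fold change of the 9 tested identity genes was 0.23, against -0.01 over all tested genes. This median includes Xcr1 and is lower without it. CPM of the genotypes did not overlap for 4 of the 9 (Zbtb46, Flt3, Xcr1 and Cd83), where 40.4% of all tested genes did not overlap. Of the 8 without Xcr1, only Zbtb46, Flt3 and Cd83 did not overlap, which is no more than that share. The scaling chosen sets the balance of calls over all genes, with 1505 higher and 2008 lower under upper-quartile factors in place of 1826 and 1586, but no identity gene changed its call under any of the 3 other scalings tried. Without WT 2 and KO 1, the number of identity genes that rose was 3, and 1 fell. It was also 3 without WT 2 alone or without KO 3 alone.

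**Figure D1:**
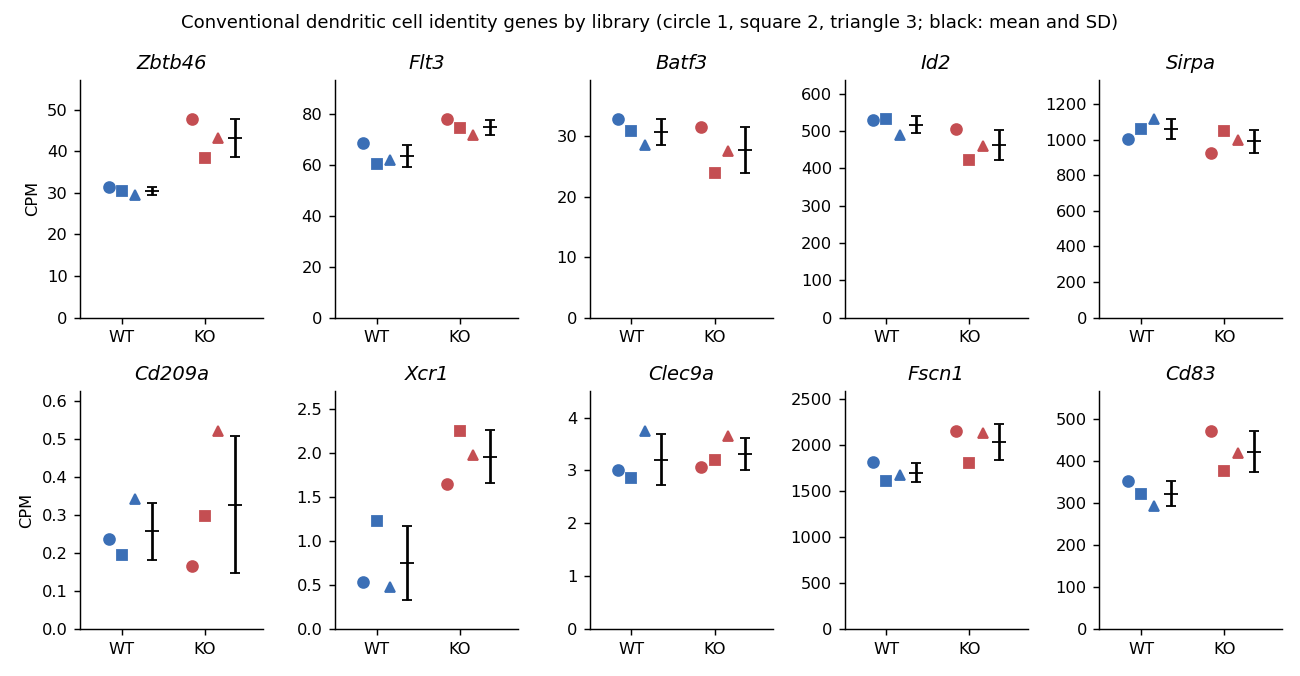
CPM of each identity gene (vertical axes, each from 0) in the 3 WT libraries (blue) and 3 KO libraries (red), with the library number as the symbol and the mean and SD in black. Zbtb46, Flt3, Xcr1 and Cd83 have every KO point above every WT point.

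Zbtb46 encodes the zinc finger factor that separates conventional dendritic cells from monocytes and macrophages (chromosome 2, 181387762 to 181459426, minus strand, mm10). It stood at 31.3, 30.5 and 29.5 CPM in WT and 47.6, 38.4 and 43.2 CPM in KO. The lowest KO library thus lay above the highest WT library, and the KO libraries were the more scattered. The means were 30.4 ± 0.945 and 43.1 ± 4.60 CPM (SD, n = 3 each), a 1.42-fold rise (log2 fold change 0.50 ± 0.09, edgeR adjusted p = 0.000776). It stayed called in all 16 alternative analyses, with log2 fold changes from 0.42 to 0.58.

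Batf3, the AP-1 family factor that cDC1 need for their development (chromosome 1, 191097847 to 191108945, plus strand), did not pass the test. It had 32.8, 30.9 and 28.5 CPM in WT and 31.6, 24.0 and 27.6 CPM in KO. The genotypes overlapped, since KO 1 lay among the WT libraries. The log2 fold change was -0.15 ± 0.10 (edgeR adjusted p = 0.314), with a 95% interval from -0.37 to 0.07 that leaves room for a moderate fall. Id2, an inhibitor of E proteins that favours conventional over plasmacytoid dendritic cells (chromosome 12, 25093799 to 25097140, minus strand), had 529, 531 and 490 CPM in WT and 505, 423 and 459 CPM in KO. KO 1 again fell inside the WT range, and the other KO libraries lay below it. Its log2 fold change of -0.16 ± 0.07 did not pass (edgeR adjusted p = 0.124). Without KO 1 it did, at -0.23 (edgeR adjusted p = 0.0201), as it did without WT 2 and KO 1 at -0.21 (edgeR adjusted p = 0.034).

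Because Zbtb46 and Batf3 went apart, their reads were set against each other within each library, a ratio that no scaling touches. WT libraries had 0.955, 0.985 and 1.03 reads of Zbtb46 per read of Batf3, and KO libraries 1.51, 1.60 and 1.57. The genotypes did not overlap, and the ratio was 1.57-fold higher in KO as a geometric mean (exact two-sided permutation p = 0.1, the smallest that 3 against 3 libraries allow; adjusted p = 0.2 over 4 ratios). These ratios were chosen after the values were seen.

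Flt3, the receptor tyrosine kinase for FLT3 ligand (chromosome 5, 147330741 to 147400489, minus strand), had 68.5, 60.3 and 62.1 CPM in WT and 78.0, 74.4 and 72.0 CPM in KO. Every KO library lay above WT 1, the highest of WT, by a small margin. The rise was 1.18-fold (log2 fold change 0.23 ± 0.06, edgeR adjusted p = 0.018). It did not pass without WT 2 (0.20, edgeR adjusted p = 0.107) or without WT 2 and KO 1 (0.17, edgeR adjusted p = 0.156). Set against Csf1r, the receptor that macrophages depend on, Flt3 reads were 0.0505, 0.0416 and 0.0405 per Csf1r read in WT and 0.0581, 0.0461 and 0.0484 in KO. Those genotypes overlapped (exact two-sided permutation p = 0.3; adjusted p = 0.4 over 4 ratios).

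The 2 cDC1 receptor genes were both scarce, and only Xcr1 passed the test. Xcr1 encodes the receptor for the chemokine XCL1 (chromosome 9, 123852315 to 123862029, minus strand). The WT libraries held 9, 19 and 7 of its reads and the KO libraries 30, 38 and 34, that is 0.747 ± 0.420 and 1.96 ± 0.303 CPM (SD, n = 3 each). All KO libraries lay above all WT libraries, and WT 2, the library with most rows of a single read, was the highest of WT. The fitted rise was 2.60-fold (log2 fold change 1.38 ± 0.36, 95% interval 0.61 to 2.15, edgeR adjusted p = 0.0125). It did not pass without WT 1 (1.18, edgeR adjusted p = 0.0612) or without KO 3 (1.37, edgeR adjusted p = 0.0505), and was larger without WT 2 and KO 1 (2.04, edgeR adjusted p = 0.00167). Xcr1 entered the test through the genotype in which it was higher: the filter asked for about 0.591 CPM in 3 libraries, and 2 of the WT libraries were below that.

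Clec9a encodes the receptor by which cDC1 sense dead cells (chromosome 6, 129408862 to 129424763, plus strand). WT libraries held 51, 44 and 55 reads of it, and KO libraries 56, 54 and 63. The genotypes overlapped at 3.21 ± 0.480 and 3.31 ± 0.307 CPM (SD, n = 3 each; log2 fold change 0.05 ± 0.19, edgeR adjusted p = 0.887). The 95% interval ran from -0.36 to 0.46. The annotation has Clec9a share 184 exon bases with Clec1b on the same strand, so some reads could belong to either gene. Reads of Xcr1 per read of Clec9a were 0.176, 0.432 and 0.127 in WT and 0.536, 0.704 and 0.540 in KO, without overlap (exact two-sided permutation p = 0.1, the smallest possible; adjusted p = 0.2 over 4 ratios).

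The cDC2 side was represented by an abundant and a nearly silent gene. Sirpa, the receptor for the CD47 signal that restrains phagocytosis (chromosome 2, 129592835 to 129632228, plus strand), had 1002, 1059 and 1114 CPM in WT and 923, 1048 and 999 CPM in KO. KO 2 lay within the WT range, and the log2 fold change of -0.10 ± 0.06 did not pass (edgeR adjusted p = 0.283; 95% interval -0.23 to 0.04). Cd209a, a lectin gene of the DC-SIGN family whose members resemble each other (chromosome 8, 3743397 to 3748984, minus strand), was read 4, 3 and 5 times in the WT libraries and 3, 5 and 9 times in the KO libraries. Of its 29 reads 58.6% were in KO (exact Clopper-Pearson 95% interval 38.9% to 76.5%, for counting error only), where KO libraries made up 52.7% of the scaled depth. A difference was not detectable at this depth.

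Both maturation genes rose. Fscn1 encodes fascin, the actin-bundling protein behind the dendrites of mature cells (chromosome 5, 142960343 to 142973185, plus strand). It stood at 1818, 1614 and 1676 CPM in WT and 2160, 1811 and 2136 CPM in KO, where KO 2 was slightly below WT 1. The rise of Fscn1 was 1.20-fold, or 0.26 ± 0.07 on the log2 scale (edgeR adjusted p = 0.0125). It did not pass without WT 2 (0.22, edgeR adjusted p = 0.0643), without KO 3 (0.22, edgeR adjusted p = 0.0966) or without WT 2 and KO 1 (0.18, edgeR adjusted p = 0.0987).

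Cd83, encoding a surface protein of mature dendritic cells that stabilises MHC class II (chromosome 13, 43784775 to 43803132, plus strand), had 353, 322 and 293 CPM in WT and 473, 377 and 420 CPM in KO. The genotypes did not overlap, and KO 1 was the highest. The rise of Cd83 was 1.31-fold, or 0.39 ± 0.09 on the log2 scale (edgeR adjusted p = 0.00601), and it stayed called in all 16 alternative analyses, between 0.30 and 0.47.

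**Figure D2:**
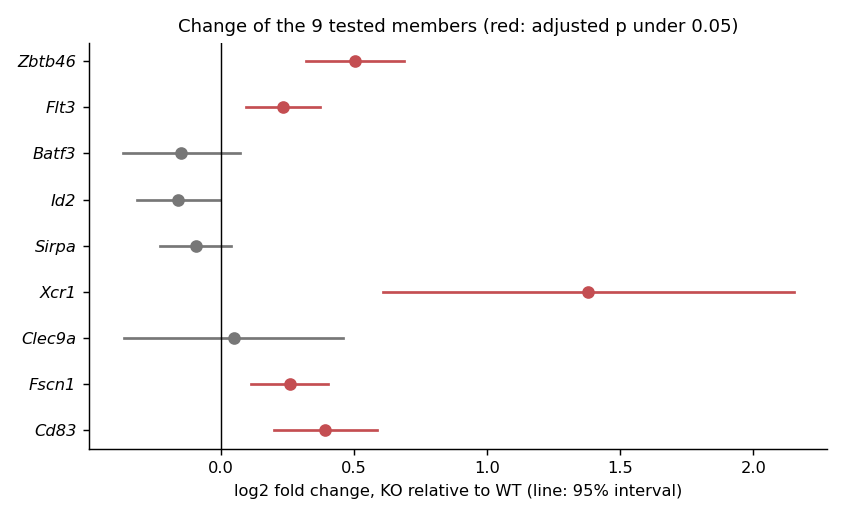
Log2 fold change of the 9 tested identity genes (points) with 95% intervals (lines) on the horizontal axis, KO relative to WT. The 5 genes in red rose; Xcr1, at 1.38, has the widest interval, and Batf3, Id2 and Sirpa have values below 0 that did not pass.

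Promoter sequences of the identity genes that rose are shown with matches to short motifs in capitals, to give the letters next to the genes that moved together. The windows run from 250 bases before to 50 after a RefSeq transcription start (GRCm38.p6) and read 5′ to 3′ along the gene. The table used held windows for 8 of the 10 genes, and Cd83 and Sirpa were not matched. Motifs searched on both strands were ACGTG and GCGTG (cores of hypoxia response elements), TGANTCA (AP-1), a pair of GAAA letters 2 bases apart (core of interferon-stimulated response elements) and GGG followed by TTCC after 3 bases (NF-κB). A palindrome cacgtg counts as 2 matches to ACGTG, 1 on each strand. Batf3, which did not pass, is shown for comparison. The Zbtb46, Batf3 and Id2 starts lie well inside the GENCODE M21 gene and not at its outer end, and the Fscn1 start lies a few bases inside.
Zbtb46 (chr2:181424339-181424638, minus strand): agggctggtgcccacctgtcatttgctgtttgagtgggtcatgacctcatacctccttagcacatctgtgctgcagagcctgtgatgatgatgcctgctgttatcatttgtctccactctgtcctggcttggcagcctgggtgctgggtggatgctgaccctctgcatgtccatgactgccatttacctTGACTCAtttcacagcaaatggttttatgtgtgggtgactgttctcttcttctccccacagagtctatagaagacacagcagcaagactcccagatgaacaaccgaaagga
Flt3 (chr5:147400440-147400739, minus strand): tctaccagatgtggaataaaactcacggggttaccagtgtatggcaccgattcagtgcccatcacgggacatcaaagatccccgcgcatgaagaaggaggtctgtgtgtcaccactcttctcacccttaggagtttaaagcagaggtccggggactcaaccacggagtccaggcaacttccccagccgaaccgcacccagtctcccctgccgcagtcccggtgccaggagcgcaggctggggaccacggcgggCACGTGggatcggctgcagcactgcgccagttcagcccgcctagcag
Fscn1 (chr5:142960105-142960404, plus strand): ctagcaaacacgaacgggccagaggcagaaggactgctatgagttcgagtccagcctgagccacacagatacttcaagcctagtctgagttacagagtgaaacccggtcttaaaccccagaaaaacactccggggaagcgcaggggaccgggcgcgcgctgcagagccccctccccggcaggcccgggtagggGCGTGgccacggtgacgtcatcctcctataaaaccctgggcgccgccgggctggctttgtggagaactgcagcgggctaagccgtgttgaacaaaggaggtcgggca
Xcr1 (chr9:123861980-123862279, minus strand): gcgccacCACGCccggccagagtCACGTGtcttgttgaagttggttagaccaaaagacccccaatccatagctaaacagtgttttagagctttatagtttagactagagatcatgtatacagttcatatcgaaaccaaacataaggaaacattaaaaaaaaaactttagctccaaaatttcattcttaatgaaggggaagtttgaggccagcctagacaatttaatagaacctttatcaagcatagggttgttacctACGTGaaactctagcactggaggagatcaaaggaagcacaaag
Batf3 (chr1:191098164-191098463, plus strand): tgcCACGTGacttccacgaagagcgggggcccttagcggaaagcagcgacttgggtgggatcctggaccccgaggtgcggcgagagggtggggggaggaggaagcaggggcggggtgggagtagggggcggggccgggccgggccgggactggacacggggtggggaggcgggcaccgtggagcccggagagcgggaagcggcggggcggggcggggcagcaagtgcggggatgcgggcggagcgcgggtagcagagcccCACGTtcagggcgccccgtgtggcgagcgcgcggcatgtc

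The Zbtb46 window held 1 match, to TGANTCA, 61 bases before the start, a motif found in 7.81% of the 32851 windows of the table. That start lies well inside the gene. Whether these cells used it was not measured, so the match may lie outside the active promoter. ACGTG was matched 2 times in the Flt3 window, within the palindrome cacgtg just after the start, 3 times in the Xcr1 window and 3 times in the Batf3 window. The motif ACGTG occurred in 19.62% of all windows. GCGTG, present in 32.39% of all windows, was matched in Fscn1, 57 bases before the start, and in Xcr1. The interferon element core (3.44% of all windows) and the NF-κB motif (5.56%) were matched in none of the 8 windows. The Id2, Clec9a and Cd209a windows held no match to any of the 5 motifs. A match describes letters, and binding was not measured.

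Levels of the identity genes spanned the whole range of expression once divided by exon length. Fscn1 had 565 ± 34.7 CPM per kilobase in WT and 676 ± 64.7 in KO (SD, n = 3 each), more than 99.5% of tested genes. Sirpa (216 ± 11.4 and 202 ± 12.8) and Id2 (212 ± 9.45 and 190 ± 16.9) followed and did not differ from each other beyond their spread. Cd83 had 125 ± 11.7 CPM per kilobase in WT and 165 ± 18.7 in KO, above 97.5% of tested genes. Below these came Batf3 (19.3 ± 1.36 and 17.4 ± 2.38), Flt3 (10.3 ± 0.701 and 12.1 ± 0.487) and Zbtb46 (3.58 ± 0.111 and 5.06 ± 0.541). Zbtb46, though it marks the lineage, stood above only 47.4% of tested genes.

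Clec9a (0.973 ± 0.146 and 1.0 ± 0.0931 CPM per kilobase) stood above 19.5% of tested genes, and Xcr1 (0.168 ± 0.0943 and 0.439 ± 0.0681) above 6.84%. Cd209a was last, at 0.163 ± 0.0477 in WT and 0.207 ± 0.114 in KO, and in WT it overlapped with Xcr1. Zbtb46, Flt3, Batf3, Id2, Sirpa, Fscn1 and Cd83 were thus expressed in both genotypes. The surface markers most specific to cDC1 and Cd209a were at the bottom of the range in both. Csf1r, a macrophage gene, had 250 CPM per kilobase in WT and 257 in KO, above Flt3 and Zbtb46. Whether the cells fit the label of conventional dendritic cell identity cannot be told from these levels.

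**Figure D3:**
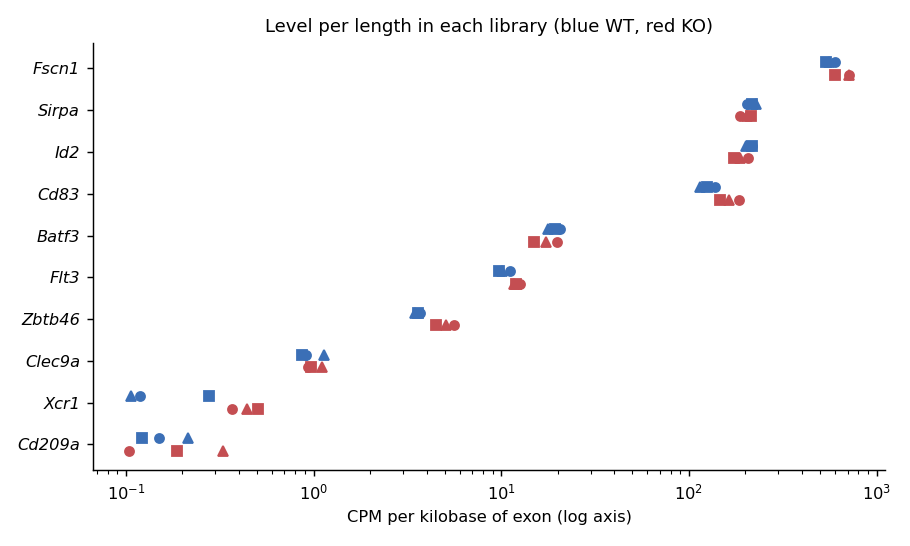
CPM per kilobase of exon (horizontal log axis) of each identity gene in the WT (blue) and KO (red) libraries, with the library number as the symbol. Fscn1, at 565 in WT, and Cd209a, at 0.163 in WT, are the extremes, and Xcr1 is the gene whose WT and KO points are farthest apart.

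Within a genotype, several identity genes had their libraries in the same order. In KO, Zbtb46, Batf3, Id2, Fscn1 and Cd83 all had their highest level in KO 1 and their lowest in KO 2, with KO 3 between, an order that 22.4% of all tested genes showed. Cd83 was above the KO mean by 0.17 on the log2 scale in KO 1 and at -0.16 from it in KO 2. Sirpa took the opposite order, at -0.10 in KO 1 and 0.08 in KO 2, an order shared with Xcr1 and with 22.9% of tested genes. In WT, Zbtb46, Batf3 and Cd83 were highest in WT 1 and lowest in WT 3, as were 16.8% of tested genes. The spread between KO 1 and KO 2 in Batf3 (0.20 and -0.20) was wider than the genotype difference fitted for that gene.

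**Figure D4:**
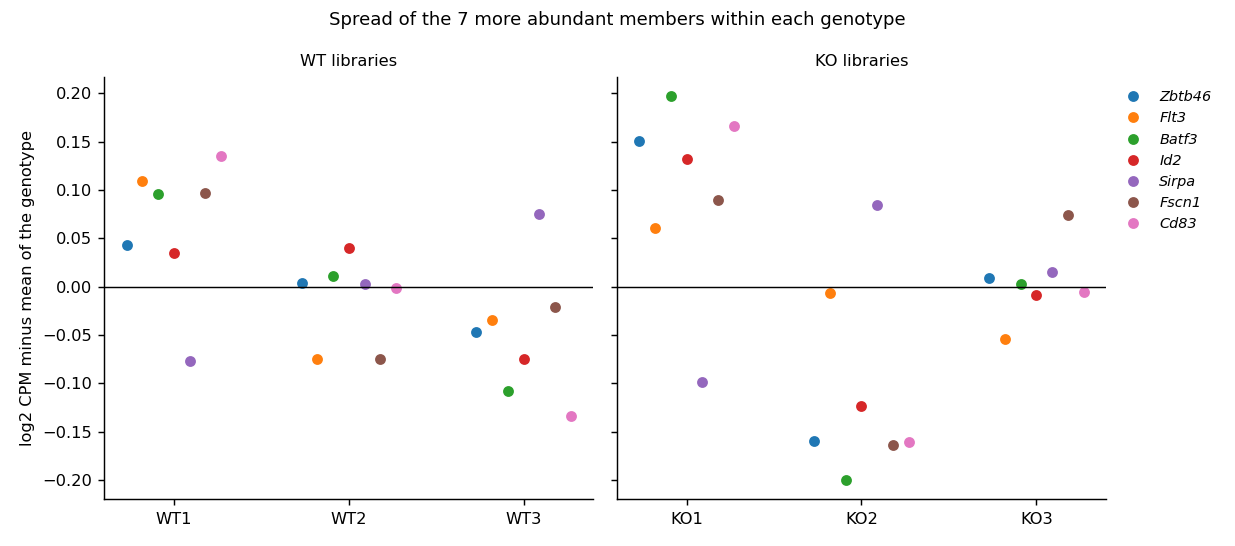
Deviation of each library from the mean of its genotype in log2 CPM (vertical axis) for the 7 identity genes above 2 CPM per kilobase in WT, 1 colour per gene. In KO 1 all but Sirpa lie above 0, and in KO 2 all but Sirpa lie at or below 0.

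By the naming rule, the 3 genes whose log2 CPM followed Zbtb46 most closely over the 6 libraries were Mvp, Dnah2 and Tnfrsf9 (Pearson r = 0.9998, 0.999 and 0.9987). Among the 3 closest to Cd83 were Nans and Tinagl1 (r = 0.995 and 0.994). These coefficients describe 6 libraries that share the genotype difference and were picked as the highest of all tested genes. Mvp and Dnah2 rose 1.21-fold and 1.58-fold, as did Tnfrsf9, the gene of the costimulatory receptor 4-1BB, by 1.58-fold (edgeR adjusted p = 0.00811, 5.7e-05 and 5.92e-05).

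Wider lists of dendritic cell genes were set beside the identity genes, of which 5 of 9 tested rose. A rise was not particular to dendritic cell genes. Of 15 tested macrophage genes, described below, 8 rose and 2 fell, with a median log2 fold change of 0.29. Of 20 genes of a core conventional dendritic cell list, which holds Zbtb46 and Flt3, 9 rose and 1 fell, with a median log2 fold change of 0.23. Ass1, for argininosuccinate synthase, rose 1.68-fold and Kit, the stem cell factor receptor, 1.51-fold. Gpr132, a G protein-coupled receptor gene, rose 1.51-fold. The member that fell was H2-Eb2, an MHC class II β chain gene (log2 fold change -0.78 ± 0.09, edgeR adjusted p = 2.5e-05). Itgax, which encodes CD11c and whose promoter drives the Cre, was chosen after its values were seen. It averaged 205 CPM in WT and 179 CPM in KO and did not pass (edgeR adjusted p = 0.21), except without KO 2 (log2 fold change -0.33, edgeR adjusted p = 0.0198).

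Of 15 genes linked to cDC1, Xcr1, Batf3 and Clec9a among them, 8 rose and 2 fell (median 0.29). The 8 include Xcr1, which entered the test through KO. The genes with the lowest p were Ifi205, an interferon-inducible gene of the p200 family with near-identical copies (log2 fold change 3.32 ± 0.18), and Tlr3, for the receptor of double-stranded RNA (1.35 ± 0.19). Irf8, the factor that cDC1 depend on, rose 1.23-fold from 453 to 556 CPM (edgeR adjusted p = 0.00301), and Rab7b rose 1.22-fold. Without WT 1 or without KO 3 the number that rose was 5 and none fell. Without KO 2, 1 fell.

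Of 11 tested genes linked to cDC2, 4 fell and 1 rose (median -0.10). Esam, encoding an adhesion molecule of a cDC2 subset, fell most (log2 fold change -1.23 ± 0.16, from 9.59 to 4.09 CPM). Irf4, the factor of cDC2 function, fell from 23.7 to 16.9 CPM (log2 fold change -0.48 ± 0.09, edgeR adjusted p = 0.00224). Mgl2, a lectin gene, fell by 0.42 on the log2 scale (edgeR adjusted p = 0.0423) and Notch2, for a Notch receptor, rose 1.27-fold (edgeR adjusted p = 0.0145). Mgl2 did not pass without WT 1 (-0.46), WT 2 (-0.32), KO 1 (-0.38), KO 3 (-0.38) or WT 2 and KO 1 (-0.27), nor with library size only (-0.39), no low-count filter (-0.41) or the DESeq2 Wald test (-0.42). Notch2 did not pass without WT 1 (0.30), WT 2 (0.31) or KO 3 (0.33). The number of the list that fell was 2 with scaling to library size only, without WT 2, KO 1 or KO 3, and without WT 2 and KO 1. The number that rose was 0 without WT 1, WT 2 or KO 3 and 2 without KO 2 or with no low-count filter. Whether the cDC1 and cDC2 lists differed was not tested.

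Transcription factors and other regulators of the lineage rose in 11 and fell in 2 of 23 cases (median 0.08), Zbtb46 among those that rose. Nfil3 and Runx3 rose 1.56-fold and 1.43-fold, and Ikzf1, for the factor Ikaros, rose 1.32-fold. Stat3, which transmits the FLT3 signal, rose 1.34-fold. The regulators that fell were Irf4 and Rbpj, the nuclear partner of Notch. The number that fell was 1 with library size only or no low-count filter and 1 without WT 1, WT 3 or KO 3. Of 11 cytokine receptor genes, Flt3 among them, 6 rose and 0 fell (median 0.23). Il2rg, the common γ chain, rose 1.33-fold, and Il3ra rose 1.31-fold. Csf2ra, for the α chain of the GM-CSF receptor, rose by 0.32 ± 0.06 on the log2 scale.

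Of 19 tested genes on a wider maturation list, Fscn1 and Cd83 included, 10 rose and 1 fell (median 0.26). Ccr7, the chemokine receptor that takes mature cells to lymph nodes, rose 1.47-fold to 2029 CPM, and the costimulatory genes Cd86 and Cd40 rose 1.44-fold and 1.47-fold. Pdcd1lg2, for the checkpoint ligand PD-L2, rose 1.39-fold. The gene that fell was Tnfrsf4 (from 8.57 to 5.98 CPM), and none fell without WT 1, WT 2 or KO 3. Tnfrsf4 did not pass without KO 1 (-0.40) or without WT 2 and KO 1 (-0.23) either, and there Birc3, named to complete the count, fell instead (log2 fold changes -0.20 and -0.22). Ccl22, a chemokine gene of mature cells chosen after its values were seen, had 793 and 865 CPM and did not pass (edgeR adjusted p = 0.265), except without KO 2 (log2 fold change 0.22).

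Interferon-induced genes rose in all 15 tested cases beside these, with a median log2 fold change of 3.11. Their summed level ran from 473 to 557 CPM in WT and from 2497 to 3140 CPM in KO. Irf7 and Ifit3 had log2 fold changes of 4.28 ± 0.15 and 4.55 ± 0.20, Oasl2 3.12 ± 0.09 and Isg15 3.11 ± 0.12. The part of this response in the rise of Zbtb46, Xcr1, Cd83 and the cDC1 genes was not tested.

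**Figure D5:**
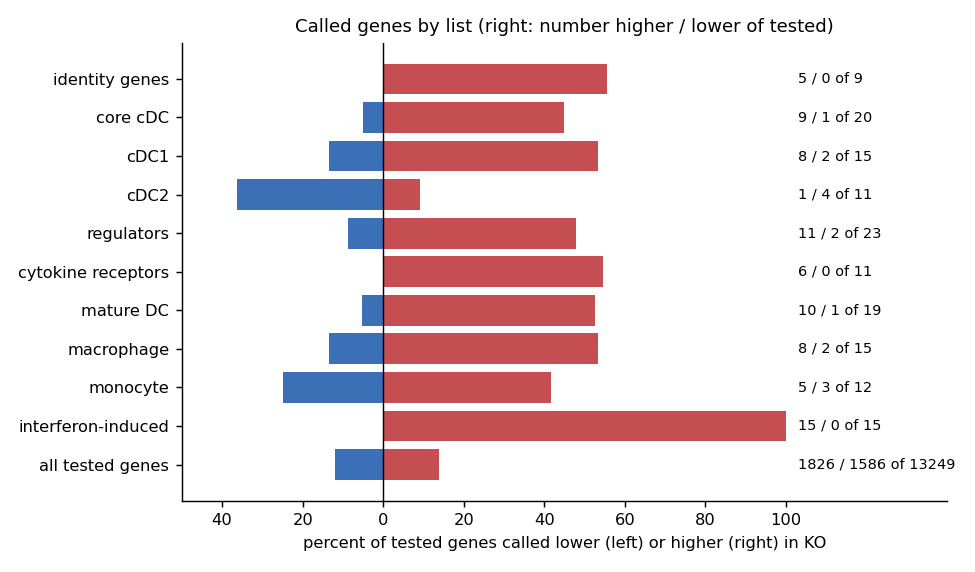
Percent of the tested genes of each list called lower (blue, left) or higher (red, right) in KO, with the numbers higher and lower of those tested at the right edge. The identity genes have 5 higher and 0 lower of 9. Xcr1, which entered the test through KO, is counted there and in the cDC1 list. The cDC2 list is the one of the lists shown with more genes lower than higher, and the bottom bar gives all tested genes.

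Markers of other cells were followed as a check on composition. Macrophage genes were expressed throughout, and of 15 tested 8 rose and 2 fell (median 0.29). Fcgr1 and Siglec1, both also interferon-inducible, had log2 fold changes of 2.96 ± 0.07 and 2.97 ± 0.17, Cd14 rose 2.06-fold and C5ar1 1.61-fold. The summed macrophage level nonetheless was lower in KO, from 19484 to 19700 CPM against 22551 to 25079 CPM in WT, since it is mostly Lyz2, the lysozyme gene (log2 fold change -0.40 ± 0.04, chosen after its values were seen).

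Of 12 monocyte genes 5 rose and 3 fell, with summed levels of 663 to 680 CPM in WT and 548 to 633 CPM in KO. The mean of F13a1 alone went from 175 to 30.8 CPM, a larger drop than that of the mean sum, from 669 to 589 CPM. Plac8, one of those that rose, was named for its filter limit after its values were seen: the WT libraries held 3 to 5 of its reads and the KO libraries 28 to 60, so that like Xcr1 it entered the test through KO. The same limit holds for Camp and Mcpt8 below, with 5 to 14 and 3 to 6 reads per WT library. F13a1 had a log2 fold change of -2.50 ± 0.06 and Chil3 of -0.67 ± 0.06, while Ly6c2, which resembles Ly6c1, and Vcan rose 2.40-fold and 1.94-fold. Of 7 plasmacytoid dendritic cell genes tested, 3 rose and 0 fell (Ly6c2, Bst2 and Tcf4; summed 237 to 275 CPM in WT and 473 to 475 CPM in KO). Bst2 made most of the rise in that sum (means of 122 CPM in WT and 292 CPM in KO) and is also on the interferon-induced list. Ly6c2 is counted among the monocyte genes too. Siglech, the defining gene of plasmacytoid dendritic cells, was read 2, 2 and 0 times in the WT libraries and 1, 1 and 2 times in the KO libraries. Of 8 neutrophil genes 2 rose (Ngp and Camp) and 2 fell (Mmp8 and Cxcr2), at 641 to 718 CPM in WT and 451 to 507 CPM in KO, most of it Mmp8, and Ly6g had at most 4 reads in any library. Of 5 mast cell and basophil genes tested, 4 rose and 0 fell (Kit, Mcpt8, Gata2 and Prss34; 50.4 to 57.5 CPM in WT and 81.9 to 89.0 CPM in KO). Most of that level is Kit, and Fcer1a had 1 read in WT 2, 1 in KO 2 and 0 elsewhere. Prss34 did not pass without WT 2 (0.93), WT 3 (0.84), KO 1 (0.87), KO 3 (1.0) or WT 2 and KO 1 (0.78).

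Of 7 progenitor genes tested, Flt3 and Kit among them, 6 rose and 0 fell, with summed levels of 125 to 138 CPM in WT and 228 to 241 CPM in KO. Ly6a, which encodes Sca-1 and is interferon-inducible, rose most (log2 fold change 2.83 ± 0.08), and Gata2 and Cd34 had 0.89 ± 0.18 and 1.01 ± 0.26. Cd34 did not pass without WT 1 (0.79, edgeR adjusted p = 0.0549). Of 2 eosinophil genes tested, Ccr3 rose, and it passed in 6 of the 16 alternatives (summed level 10.3 to 12.5 CPM in WT and 11.1 to 13.7 CPM in KO). B cell genes (1.43 to 2.33 CPM in WT and 1.51 to 2.55 CPM in KO), T and NK cell genes (0.651 to 1.5 and 0.522 to 1.01 CPM) and erythroid genes (0.414 to 0.712 and 0.711 to 1.10 CPM) were close to absent. Stromal genes summed to 8.80 to 15.5 CPM in WT and 11.3 to 12.9 CPM in KO, mostly Pecam1. Of B cell and stromal genes 1 each was tested (Cd79b and Pecam1), and neither passed, though Pecam1 did without WT 2 (log2 fold change 0.45). The part of other cells in the changes of the identity genes was not tested.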

How the data were processed

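The data were RNA-seq read counts of 6 libraries, 3 per genotype. The authors deposited 1 table of raw counts per gene symbol, not normalized. The submitters' processing notes name the build mm10 and, with no version or role, HISAT, HISAT2, TopHat2, HTSeq, SAMtools and DESeq2. Annotation, strandedness and the handling of multiply aligned reads are not stated in those notes, so reads of overlapping or near-identical genes may have been split or merged.

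Where a symbol was repeated (23 symbols, 47 rows), the row with most reads kept it. Dates replace the symbol in 26 rows, so that 1 gene each of the maturation and cDC1 lists was not looked up. Rows were filtered with filterByExpr at a minimum count of 10 (13249 kept) and scaled by TMM. The test was edgeR's quasi-likelihood F test (edgeR 4.0.16, R 4.3.3) on genotype alone, with Benjamini-Hochberg adjustment over all tested rows. SE is the size of the log2 fold change over the square root of F. Single values were compared by an exact permutation test. Lengths and positions came from GENCODE M21 (mm10). No 2 replicates agreed within sampling noise (chi-square per degree of freedom at least 4.16).

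The identity genes and the 19 lists, which count them as 1, were chosen with earlier results of these data known. Named genes were the identity genes, Epas1, for each list the 4 called genes of lowest p (or 1 gene where none was called), and the 3 genes closest in pattern to Zbtb46 and to Cd83. Of these genes 1 is not reported here, nor is 1 of the 4 read ratios. Others are said to have been chosen after their values were seen, or complete a count. The 16 alternatives were DESeq2 1.42.0 size factors, library size only, upper-quartile factors, no low-count filter, 10 counts in every library of a genotype, the DESeq2 Wald test, limma-voom (limma 3.58.1), a robust fit, a replicate block, leaving out each library, and leaving out WT 2 and KO 1. Simulated data had 13249 genes with 50 changed at each fold, a far smaller share than the 25.8% called here. On them the test recovered 18% of 1.25-fold changes, 52% of 1.5-fold, 82% of 2-fold and 96% of 4-fold changes. Of its calls, 8.15% were false. Recovery depends on the share of changed genes, so these rates may not hold for the real data.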

Additional observations from a re-analysis of the deposited data

How the results depend on the processing

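Zbtb46 and Cd83 kept their call in all 16 alternatives, and Batf3 and Sirpa stayed below the threshold in all 16 without a change of sign. With each library left out in turn, log2 fold changes ran from 0.20 to 0.30 for Flt3, 0.21 to 0.34 for Fscn1, 1.17 to 1.93 for Xcr1, -0.23 to -0.10 for Id2 and -0.029 to 0.18 for Clec9a. Clec9a changed sign without WT 2 (-0.027) and without KO 3 (-0.029), each time far from the threshold. Over all genes, 1182 to 1992 rose and 945 to 1622 fell when 1 library was left out. The lowest counts, 1182 and 945, were without KO 3, and 1027 fell without WT 1. Without WT 2 and KO 1, Xcr1 was at 2.04, Flt3 (0.17) and Fscn1 (0.18) did not pass and Id2 (-0.21) did, so that 3 identity genes rose and 1 fell. With single libraries left out, 3 to 5 identity genes rose and 0 to 1 fell. For the lists, the same ranges were 5 to 8 higher and 0 to 2 lower for cDC1. For cDC2 they were 0 to 2 higher and 2 to 3 lower, and for regulators 8 to 11 higher and 1 to 3 lower. Core genes had 8 to 9 higher and 1 to 2 lower (2 without KO 2). Maturation genes had 8 to 14 higher and 0 to 1 lower, and cytokine receptor genes 4 to 8 higher. Macrophage genes had 6 to 8 higher and 2 to 3 lower, and monocyte genes 5 to 6 higher. Neutrophil genes had 2 to 3 higher, mast cell and basophil genes 3 to 5, and progenitor genes 5 to 6. The ranges were 0 to 0 higher for eosinophil genes, and 0 to 1 higher and 0 to 2 lower for stromal genes. Among cDC2 genes, 2 rose with no low-count filter, and 2 fell with library size only or without WT 2 and KO 1. Without WT 2 and KO 1, 8 core genes and 7 cDC1 genes rose. Among regulators, 1 fell with library size only or with no low-count filter. No eosinophil gene rose (0) with no low-count filter, the DESeq2 Wald test, the replicate block or without WT 2 and KO 1, and 2 stromal genes fell with no low-count filter. With library size only, the summed B cell and stromal levels were higher in KO by 0.0417 and 0.189 CPM, where the main differences were -0.00388 and -0.124 CPM. Upper-quartile factors left 42.8% of calls higher, against 53.5%, and no scaling moved the median gene by more than 0.05 on the log2 scale. With the replicate number as a block, 1741 genes rose and 1506 fell, and no identity gene changed its call. The correlations between the deviations of same-numbered libraries were 0.0146, -0.11 and 0.0799, and not every library correlated best with its own number. With 3 libraries per genotype, these values cannot decide whether a number marks a pairing or a shared batch. The causes were not tested. Depth limits Cd209a, Xcr1 and Clec9a most, at 3 to 63 reads per library.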
